A study of Mus musculus with 6 samples.

Results

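Pre-mRNA splicing factors encoded by genes of 6 symbol stems (Lsm, Snrp, Sf3, Srsf, Prpf and Hnrnp) were followed in RAW 264.7, a mouse macrophage line, cultured for 48 h in the presence of 100 ng/ml lipopolysaccharide (LPS) and 100 pM of LPS-binding protein (LBP), against the same line kept untreated for 48 h. The members were chosen by gene symbol: 59 of 16281 probes carried 1 platform gene symbol that began with a stem, and they named 55 genes. The stems had been put forward with log ratios of this same comparison already known, so the ratios and calls below are a description of these genes and no independent test of them. RNA of treated and of untreated cells was hybridised together on each of 6 two-colour arrays, which fell into sets 1, 2 and 3. Each set had 1 array with treated RNA in Cy5 (red) and 1 with treated RNA in Cy3 (green). LPS is a component of the outer membrane of Gram-negative bacteria, and LBP is a serum protein that hands it to its receptors. All samples came from 1 cell line, and the labels do not say that sets were separate cultures, so each p-value rests on a spread between sets that may be purely technical.

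Each value is a log2 ratio, treated over untreated, computed as if the deposited logarithms had base 2, which the sources used here do not state. A natural logarithm would make every fold change larger. The direction of the ratio followed the dyes named in the labels, and under it all 9 tested probes for Nos2, Tnf, Il6 and Il1b, genes that LPS is known to induce, were above 0 on all 6 arrays. The table holds ratios within an array and no levels, so the cell type could not be checked against its markers. Fewer cells that express a gene and less RNA per cell cannot be told apart in such ratios. Between 7.97% and 17.8% of the values on an array were exactly 0, and these were treated as missing. A probe was tested where it had a value on all 6 arrays, as 12724 probes did, and it was called where limma's adjusted p was under 0.05. The error given after ± is the SD over sets (n = 3 set means). The number of arrays limits the precision. Values on single arrays are listed for sets 1, 2 and 3, once for arrays with treated RNA in Cy5 (treated in Cy5) and once for those with it in Cy3 (treated in Cy3).

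Splicing removes introns from pre-mRNA in the spliceosome, which is built from small nuclear ribonucleoproteins (snRNPs) named after their U-rich RNAs. The U1, U2, U4 and U5 RNAs each sit in a ring of Sm proteins (Snrp genes), whereas U6 RNA carries a related ring of Lsm proteins. SF3a and SF3b belong to the U2 snRNP and hold the branch point, Prpf proteins serve in the U4/U6.U5 tri-snRNP and in later steps, and SR proteins (Srsf) and hnRNPs (Hnrnp) bind exons and introns and steer which splice sites are used.

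Of the 51 tested member probes, 22 fell in treated cells and 0 rose (limma), and 0 were above 0 at an unadjusted p under 0.05. Among all 12724 tested probes 12.2% fell and 14.8% rose, and 4874 had an unadjusted p under 0.05 in either direction (limma). How many of these 4874 were above 0 was not counted. The 22 probes named 21 genes, and 21 of the 22 read below 0 on all 6 arrays. Over all 51 members 24 probes did so, against 14.1% of all tested probes. The median ratio was -0.27 over members (1.21-fold lower in treated cells) and -0.01 over all tested probes. The lowest member was Srsf3 at -0.84 and the highest was Prpf6 at 0.17, so no tested member changed 2-fold. Adjusted p-values of the called members ran between 0.000844 and 0.0498 (limma).

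The stems differed in how many of their probes fell. Srsf had 6 of 7 tested probes lower (median -0.56), Hnrnp 6 of 8 (median -0.39), Sf3 3 of 5 (median -0.29) and Lsm 5 of 10 (median -0.31). Snrp had 1 of 12 (8.33%, median -0.07) and Prpf 1 of 9 (11.1%, median -0.09), against the 12.2% of all probes. Some genes had more than 1 tested probe, among them Srsf2. By gene, 5 of 6 Srsf, 1 of 11 Snrp and 1 of 8 Prpf genes were called lower. The differences between stems were not tested, since genes are not replicates and 3 sets allow an exact sign test no p below 0.25.

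**Figure D1:**
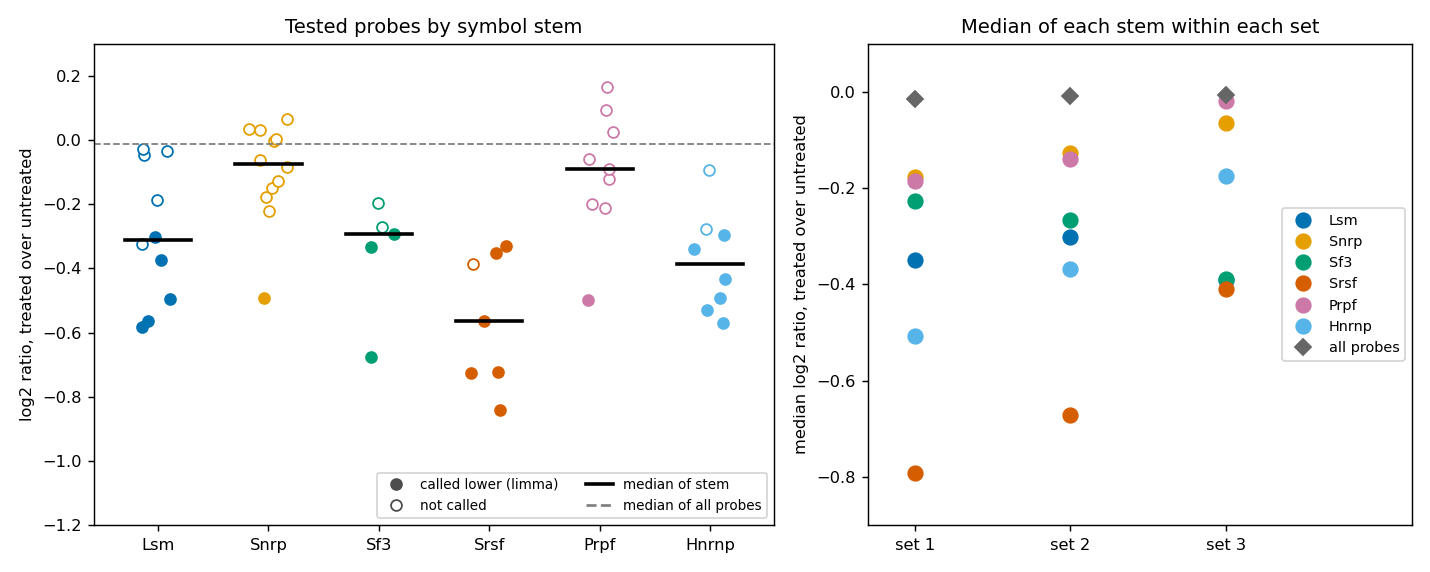
Log2 ratios of treated over untreated cells for the tested probes of each symbol stem (left, filled where called lower by limma, bar at the stem's median, dashed line at the median of all tested probes) and the median of each stem within each set (right, y axis in log2 units). Srsf has the lowest median (-0.56), and Snrp (-0.07) and Prpf (-0.09) lie nearest to the median of all probes (-0.01).

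Promoter sequence is shown for the lowest called member of Srsf, a second SR protein gene, the lowest called member of Sf3 and 1 of the 2 lowest members of Lsm, so that genes which fell can be set beside Snrpb2, which stood at -0.003. Each has 1 annotated start in the RefSeq table (GRCm38.p6). Windows run over 300 bases, 250 before the start and 50 after it, and capitals mark matches on either strand. The strings searched were the E-box CACGTG, the ETS motif CCGGAAG, the CCAAT box, the TATA box with the letters TATAAA, the NRF1 motif GCATGCGC and the YY1 motif AAGATGGCG. No motif in the windows shown overlapped another. The windows lie at chr17:29032410-29032709 (plus strand) for Srsf3, chr11:116853045-116853344 (minus strand) for Srsf2, chr1:55027429-55027728 (minus strand) for Sf3b1, chr8:78821103-78821402 (minus strand) for Lsm6 and chr2:143062819-143063118 (plus strand) for Snrpb2.
Srsf3: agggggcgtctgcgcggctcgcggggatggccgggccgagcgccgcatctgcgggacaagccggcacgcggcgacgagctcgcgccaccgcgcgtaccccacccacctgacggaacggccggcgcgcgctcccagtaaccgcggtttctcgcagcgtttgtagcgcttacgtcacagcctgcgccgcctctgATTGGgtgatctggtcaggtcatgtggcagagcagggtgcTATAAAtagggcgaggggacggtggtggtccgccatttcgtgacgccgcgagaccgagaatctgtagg
Srsf2: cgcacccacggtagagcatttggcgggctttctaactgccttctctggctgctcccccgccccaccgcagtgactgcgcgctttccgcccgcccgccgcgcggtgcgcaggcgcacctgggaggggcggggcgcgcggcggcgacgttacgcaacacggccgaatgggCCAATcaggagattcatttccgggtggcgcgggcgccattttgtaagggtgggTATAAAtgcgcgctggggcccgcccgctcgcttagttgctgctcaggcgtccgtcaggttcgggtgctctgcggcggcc
Sf3b1: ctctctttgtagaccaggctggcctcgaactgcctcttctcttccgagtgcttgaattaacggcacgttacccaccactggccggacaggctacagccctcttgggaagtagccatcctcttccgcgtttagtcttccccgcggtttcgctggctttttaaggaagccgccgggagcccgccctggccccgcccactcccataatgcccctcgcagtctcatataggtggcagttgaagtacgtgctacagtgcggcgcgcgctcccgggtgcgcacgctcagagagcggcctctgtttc
Lsm6: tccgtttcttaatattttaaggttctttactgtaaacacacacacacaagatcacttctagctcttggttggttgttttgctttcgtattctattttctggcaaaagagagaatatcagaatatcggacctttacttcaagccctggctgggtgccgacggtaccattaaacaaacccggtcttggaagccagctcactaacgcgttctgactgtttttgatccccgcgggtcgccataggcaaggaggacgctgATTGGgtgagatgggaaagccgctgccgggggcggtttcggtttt
Snrpb2: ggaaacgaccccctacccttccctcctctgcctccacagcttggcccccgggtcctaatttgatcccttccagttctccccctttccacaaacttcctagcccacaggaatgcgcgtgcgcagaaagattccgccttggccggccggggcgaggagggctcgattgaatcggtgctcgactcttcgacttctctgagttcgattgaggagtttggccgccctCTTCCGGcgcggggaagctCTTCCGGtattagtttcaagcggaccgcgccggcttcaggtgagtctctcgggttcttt

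Srsf3 and Srsf2 each held 1 CCAAT box and 1 TATA box, Lsm6 held 1 CCAAT box, Snrpb2 held 2 ETS motifs, and none of the 6 letter strings was found in the Sf3b1 window. The table held 64 windows for 49 of the 55 member genes. The CCAAT box was in 46.9% of the member windows (37.4% of all 32851 windows) and the ETS motif in 21.9% (8.86% of all). The E-box was in 9.38% of member windows (7.15% of all), the TATA box in 10.9% (13.6% of all), the NRF1 string in 3.12% (2.71% of all) and the YY1 string in 4.69% (1.40% of all). Member windows had a median GC content of 59.0%, against 52.7% for all windows, which bears on how often strings rich in G and C occur. Of 19 genes that fell and had a window, 4 held the ETS motif and 11 the CCAAT box. Of 23 genes tested and not called, 9 held the ETS motif and 8 the CCAAT box. The E-box was in 0 of the 19 and 4 of the 23, and the TATA box in 3 and 3. The NRF1 string was in 2 and 0, and the YY1 string in 1 and 1. Differences between the 19 and the 23 genes were not tested. All motif counts are matches of letters, and binding was not measured.

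SR proteins are named for their stretches of serine and arginine, bind exonic enhancers and recruit the U1 and U2 snRNPs. Srsf3, the smallest of the classical SR proteins, read -1.13, -0.89 and -0.56 (treated in Cy5) and -1.05, -0.82 and -0.60 (treated in Cy3). It was called lower, was below 0 on every array and averaged -0.84 ± 0.25 (1.79-fold lower in treated cells). Srsf2 (SC35), a marker of nuclear speckles, had 3 probes. Probe 8397 read -0.81, -0.66 and -0.62 (treated in Cy5) and -1.04, -0.69 and -0.55 (treated in Cy3), and probe 17569 read -0.93, -0.65 and -0.35 (treated in Cy5) and -1.05, -0.88 and -0.46 (treated in Cy3). Their means, -0.73 ± 0.18 and -0.72 ± 0.29, nearly coincide. The other Srsf2 probe (6938) had no value in set 2 and was not tested. It read -1.05 and -0.57 (sets 1 and 3, treated in Cy5) and -0.91 and -0.34 (treated in Cy3), also below 0 throughout.

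Srsf6, an SR protein with paired RNA recognition motifs, read -0.71, -0.46 and -0.16 (treated in Cy5) and -0.87, -0.83 and -0.35 (treated in Cy3). It fell by 0.56 ± 0.28 and was closest to 0 in set 3. Srsf5, another classical SR protein, read -0.43, -0.28 and -0.26 (treated in Cy5) and -0.39, -0.50 and -0.25 (treated in Cy3) and fell by 0.35 ± 0.09. Srsf9 read -0.51, -0.43 and -0.38 (treated in Cy5) and -0.35, -0.18 and -0.11 (treated in Cy3) and fell by 0.33 ± 0.09. Its ratio averaged -0.44 with treated RNA in Cy5 and -0.22 in Cy3. Srsf10, which acts as a repressor of splicing when dephosphorylated, read 0.28, -0.67 and -0.52 (treated in Cy5) and 0.15, -0.73 and -0.83 (treated in Cy3). Both arrays of set 1 were above 0 and the other 4 below it, and Srsf10 was not called (-0.39 ± 0.52). Srsf1 (ASF/SF2), a general splicing factor with roles in RNA export and translation, had no value in set 3. Its set 1 arrays read 0.21 and 0.12 and its set 2 arrays -0.26 and -0.22, so it split by set as Srsf10 did.

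The hnRNPs coat nascent transcripts and often oppose SR proteins at splice sites. Hnrnpr read -0.78, -0.49 and -0.14 (treated in Cy5) and -0.72, -0.73 and -0.55 (treated in Cy3), below 0 on all 6 arrays, and fell by 0.57 ± 0.20. Hnrnpl, which binds CA-rich RNA and represses exons, read -0.78, -0.14 and -0.36 (treated in Cy5) and -1.02, -0.38 and -0.50 (treated in Cy3) and fell by 0.53 ± 0.33. It was most negative in set 1. A further 4 hnRNP genes were called, all below 0 on every array. Hnrnpu (SAF-A), which also binds the nuclear scaffold, averaged -0.49 ± 0.26, and Hnrnpa1, the best known partner and rival of Srsf1, averaged -0.43 ± 0.09. The remaining calls were Hnrnpa0 at -0.34 ± 0.17, an hnRNP known to bind AU-rich mRNA in macrophages, and Hnrnph1 at -0.30 ± 0.16, which binds runs of G.

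Hnrnpm read -0.73, -0.44 and -0.27 (treated in Cy5) and -0.21, -0.19 and 0.16 (treated in Cy3) and was not called (-0.28 ± 0.21), with 1 array above 0. Hnrnpdl read -0.05, -0.22 and 0.07 (treated in Cy5) and -0.15, -0.04 and -0.17 (treated in Cy3) and was also not called (-0.09 ± 0.04). It was the hnRNP closest to 0 among those tested. Another 4 hnRNP probes lacked a value on at least 1 array. Hnrnpa2b1 had 5 values between -0.64 and 0.03, Hnrnpab 5 between -0.49 and 0.06, and Hnrnpk 5 between -0.15 and 0.07, in each case with 4 below 0. Hnrnpc, the classical pre-mRNA binding hnRNP, had 1 value (0.16).

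The Lsm genes are given by the ring that their proteins join. Lsm2 to Lsm7 are shared by the nuclear Lsm2-8 ring, which binds the 3′ end of U6 RNA, and the cytoplasmic Lsm1-7 ring, which promotes decapping of mRNA. Of these 6 shared subunits, 4 fell (median -0.43), and all 6 had a mean below 0. Lsm2 read -0.45, -0.40 and -0.65 (treated in Cy5) and -0.62, -0.65 and -0.73 (treated in Cy3) and averaged -0.58 ± 0.09. Lsm6 read -0.59, -0.51 and -0.31 (treated in Cy5) and -0.66, -0.71 and -0.60 (treated in Cy3) and averaged -0.56 ± 0.09. Both were called lower and were below -0.3 on every array.

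Lsm3 read -0.73, -0.62 and -0.62 (treated in Cy5) and -0.56, -0.15 and -0.29 (treated in Cy3) and fell by 0.50 ± 0.13. Its mean was -0.66 with treated RNA in Cy5 and -0.34 in Cy3. Lsm7 read -0.47, -0.34 and -0.52 (treated in Cy5) and -0.31, -0.31 and -0.29 (treated in Cy3) and fell by 0.37 ± 0.04, with the smallest SD of the called Lsm genes. Lsm4, whose tail is rich in arginine and glycine, read -0.42, -0.09 and -0.02 (treated in Cy5) and -0.73, -0.46 and -0.22 (treated in Cy3). It was below 0 on all 6 arrays but close to 0 in set 3 with treated RNA in Cy5, and was not called (-0.32 ± 0.23). Lsm5 read 0.25, -0.77 and -0.93 (treated in Cy5) and 0.50, -0.11 and -0.07 (treated in Cy3), above 0 on both arrays of set 1 and below 0 elsewhere, and was not called (-0.19 ± 0.49).

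Lsm1, the subunit that defines the cytoplasmic ring, read -0.01, -0.04 and -0.02 (treated in Cy5) and -0.23, 0.01 and 0.12 (treated in Cy3). It was among the members nearest to 0 (-0.03 ± 0.09) and was not called. Lsm11 belongs to the ring of the U7 snRNP, which cuts the 3′ ends of histone mRNAs, and read 0.10, -0.41 and -0.41 (treated in Cy5) and 0.36, 0.04 and 0.05 (treated in Cy3). Its mean was -0.05 ± 0.24, only the arrays of sets 2 and 3 with treated RNA in Cy5 were below 0, and it was not called. Lsm12 and Lsm14a carry Lsm folds but join none of these rings. Lsm12 read -0.35, -0.37 and -0.41 (treated in Cy5) and -0.28, -0.08 and -0.35 (treated in Cy3) and fell by 0.30 ± 0.08. Lsm14a, a component of P bodies, read 0.11, -0.003 and 0.18 (treated in Cy5) and -0.12, -0.28 and -0.10 (treated in Cy3). All 3 arrays with treated RNA in Cy3 were below 0 and 2 of the 3 in Cy5 above it, and it was not called (-0.03 ± 0.09).

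The Sm ring, which resembles the Lsm ring in fold, gave fewer calls. Of its 6 tested genes (Snrpd1, Snrpd2, Snrpd3, Snrpe, Snrpg and Snrpn), Snrpd1 fell and the other 5 were not called. Snrpd1 (SmD1) read -0.31, -0.64 and -0.65 (treated in Cy5) and -0.34, -0.64 and -0.37 (treated in Cy3), below 0 throughout, and averaged -0.49 ± 0.16. Snrpg (SmG) read -0.32, -0.11 and -0.24 (treated in Cy5) and -0.19, -0.34 and -0.13 (treated in Cy3), also below 0 throughout, but its mean of -0.22 ± 0.03 was not called. Snrpf (SmF) lacked 1 value and had 5 below 0, between -0.45 and -0.17. Snrpd3 averaged -0.18 ± 0.22, Snrpd2 -0.08 ± 0.05 and Snrpe 0.03 ± 0.46. Snrpe read 0.42 and 0.71 on the arrays of set 1 and below 0 on the other 4. Snrpn, an imprinted gene whose protein replaces SmB, read -0.27, 0.39 and 0.02 (treated in Cy5) and -0.27, 0.39 and -0.07 (treated in Cy3). Its set 1 and set 2 arrays lay on opposite sides of 0 and its mean was 0.03 ± 0.33.

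The other U1 and U2 proteins of the Snrp stem were not called. The U1 proteins Snrpa and Snrpc averaged -0.13 ± 0.14 and -0.15 ± 0.05, and the U2 protein Snrpb2 averaged -0.003 ± 0.08. Snrpa1 had 2 probes, of which probe 4243 read -0.07, -0.28 and 0.20 (treated in Cy5) and 0.18, -0.04 and 0.39 (treated in Cy3) (mean 0.06 ± 0.23) and probe 9495 averaged -0.06 ± 0.22. Neither was called, and both were above 0 in set 3. One Snrp symbol, Snrp1c-ps2, names a pseudogene related to Snrpc in the RefSeq table. Its probe averaged 0.003 ± 0.11. Probe sequences were not used here, so how far this probe and that of Snrpc detect each other's RNA was not tested.

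SF3b grips the branch point adenosine, and SF3a links it to the rest of the U2 snRNP. Sf3b1, the largest SF3b subunit and often mutated in human myeloid neoplasms, read -0.63, -0.42 and -0.72 (treated in Cy5) and -0.76, -0.46 and -1.08 (treated in Cy3). It fell and was the lowest member outside Srsf, at -0.68 ± 0.23 (1.60-fold lower in treated cells). Sf3b6 (p14), which contacts the branch point, read -0.47, -0.48 and -0.72 (treated in Cy5) and -0.27, 0.05 and -0.11 (treated in Cy3) and fell by 0.33 ± 0.10. Its mean was -0.56 with treated RNA in Cy5 and -0.11 in Cy3, and 1 array was above 0. Sf3b3 averaged -0.29 ± 0.09 and was called.

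Both SF3a subunits measured were not called. Sf3a1 read -0.39, -0.50 and -0.54 (treated in Cy5) and 0.08, -0.19 and -0.08 (treated in Cy3) (mean -0.27 ± 0.10). Its adjusted p of 0.0527 was just over the threshold, and that of the called Sf3b3 was 0.0376 (limma). A difference between SF3a and SF3b was not tested. Sf3a3 read -0.44, -0.80 and -0.52 (treated in Cy5) and 0.34, 0.34 and -0.10 (treated in Cy3) (mean -0.20 ± 0.14). For Sf3a3 the 3 arrays with treated RNA in Cy5 were all below -0.4, whereas 2 of the 3 in Cy3 were above 0. Over the 5 Sf3 probes the median was -0.56 with treated RNA in Cy5 and -0.11 in Cy3.

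**Figure D2:**
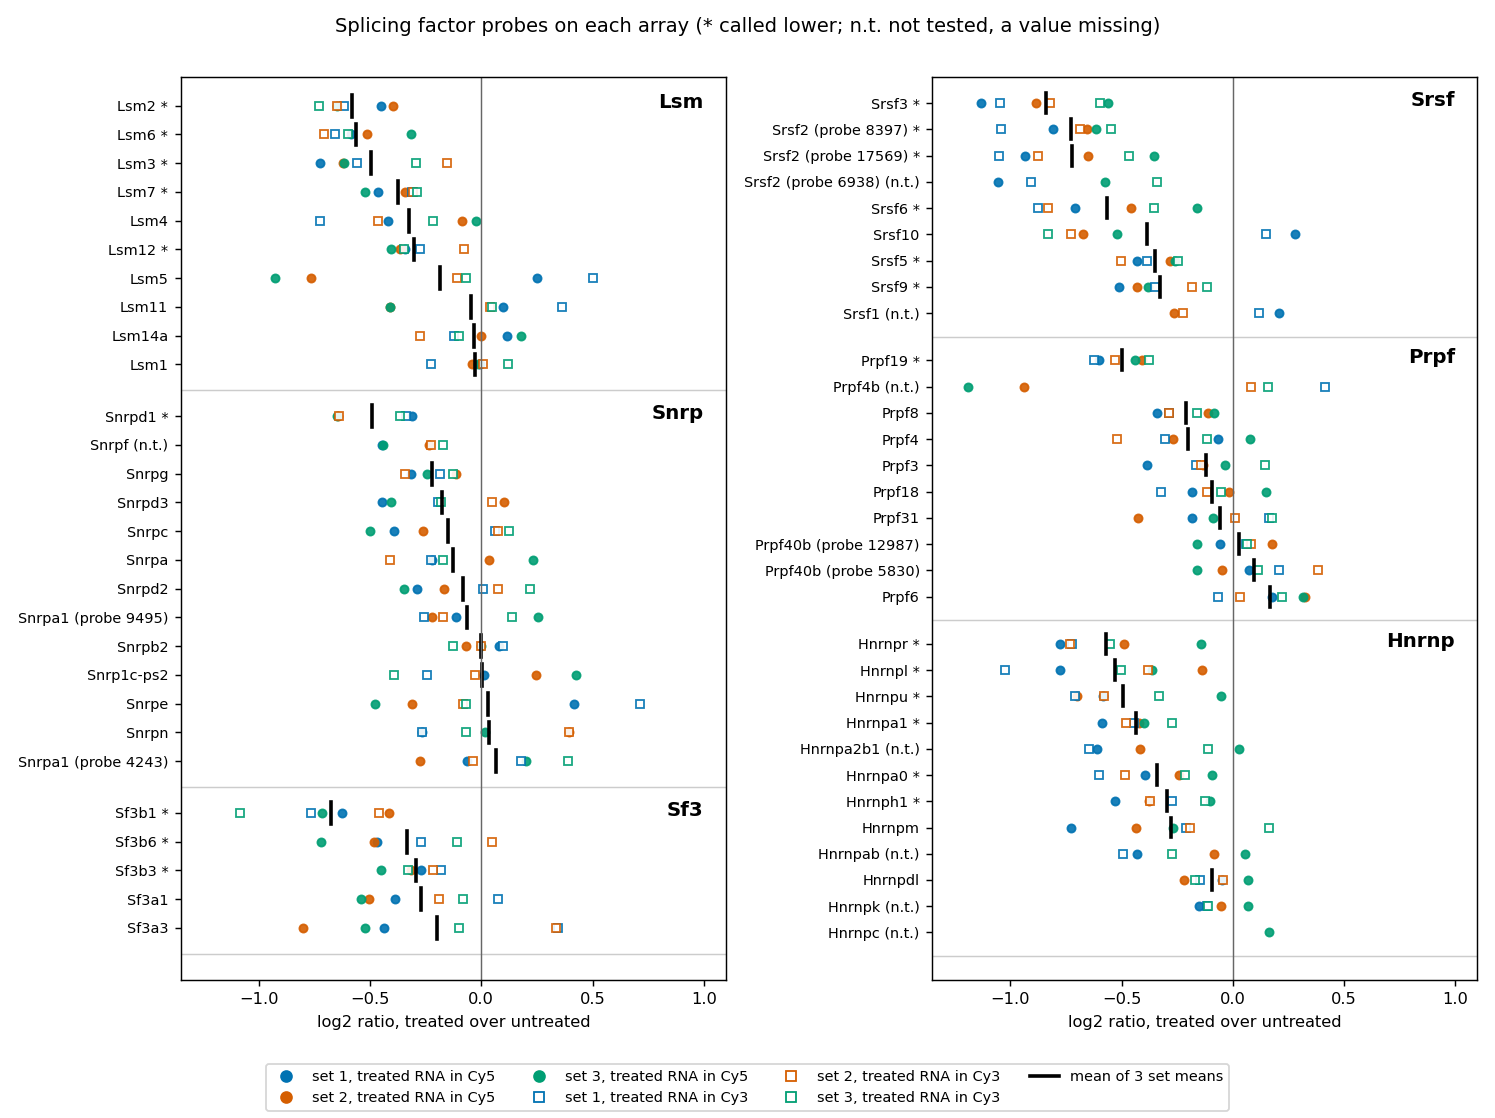
Log2 ratio of treated over untreated cells (x axis) for each of the 59 member probes, with filled circles for arrays with treated RNA in Cy5, open squares for Cy3, colours for sets, and a bar at the mean of the 3 set means for tested probes. Srsf3, both tested Srsf2 probes, Lsm2, Lsm6, Sf3b1 and Prpf19 are below 0 on all 6 arrays, and set 1 stands above 0 for Lsm5, Snrpe and Srsf10.

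Prpf genes were named for yeast mutants in pre-mRNA processing. Prpf19, the ubiquitin ligase at the core of the Prp19 complex, which helps activate the spliceosome, read -0.60, -0.41 and -0.44 (treated in Cy5) and -0.62, -0.53 and -0.38 (treated in Cy3). It was the only called gene of the stem, at -0.50 ± 0.10. Prpf8, the large U5 protein at the catalytic centre, read -0.34, -0.11 and -0.09 (treated in Cy5) and -0.29, -0.29 and -0.16 (treated in Cy3). It was below 0 on all 6 arrays, but its mean of -0.21 ± 0.10 was not called. The U4/U6 proteins Prpf3, Prpf4 and Prpf31 averaged -0.12 ± 0.17, -0.20 ± 0.19 and -0.06 ± 0.13, and Prpf18, which acts in the second catalytic step, -0.09 ± 0.15.

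The highest member was Prpf6, which bridges U5 and U4/U6, at 0.17 ± 0.11. It read 0.18, 0.32 and 0.31 (treated in Cy5) and -0.07, 0.03 and 0.22 (treated in Cy3), with 1 array below 0, and was not called. Prpf40b, a protein related to a yeast U1 component, had 2 probes. Probe 5830 read 0.07, -0.05 and -0.16 (treated in Cy5) and 0.21, 0.38 and 0.11 (treated in Cy3) (mean 0.09 ± 0.10) and probe 12987 averaged 0.03 ± 0.09, and neither was called. Prpf4b, a kinase of the tri-snRNP, lacked a value on 1 array. It read -0.94 and -1.19 (sets 2 and 3, treated in Cy5) and 0.42, 0.08 and 0.16 (treated in Cy3), so its sign followed the dye orientation.

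The effect of the dye was tested on ratios that had not been turned, a measure that the choice of members did not use. It passed for 0 of 51 member probes, against 0.181% of all tested probes (limma, adjusted p of 0.0985 or higher for members). With so small a share over all probes, 0 of 51 does not set the members apart. Without adjustment 15 members had a p under 0.05 (limma), and the share of all probes at that threshold was not counted. Whether 15 members are many or few therefore cannot be said. With the set as a random block 2 members passed, against 7.87% of all tested probes. The largest dye effect of a member was that of Sf3a3, at -0.39 for Cy5 over Cy3. By orientation alone, 16 member probes were called lower with treated RNA in Cy5 (8.74% of all tested probes) and 16 with it in Cy3 (10.8% of all). These were in part different probes. Srsf3, both tested Srsf2 probes, Sf3b1, Lsm2, Lsm6, Snrpd1, Prpf19 and Hnrnpa1 were called in both orientations, and the others were not.

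**Figure D3:**
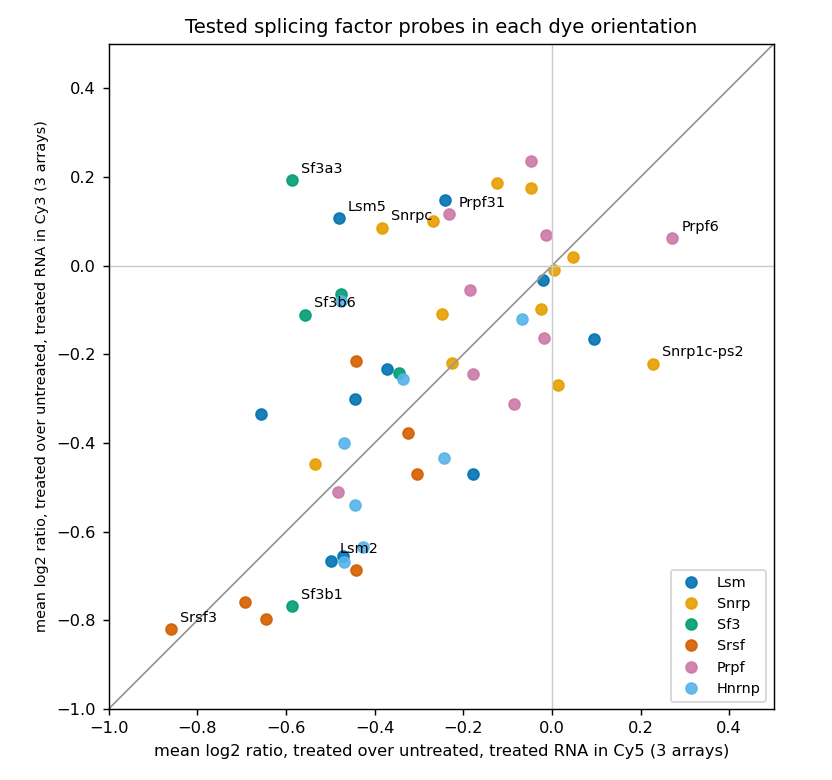
Mean log2 ratio of treated over untreated cells for each of the 51 tested member probes over the 3 arrays with treated RNA in Cy5 (x axis) and over the 3 in Cy3 (y axis), coloured by stem, with the line of equality. Srsf3, Lsm2 and Sf3b1 are below 0 in both orientations, and Sf3a3 is at -0.59 with treated RNA in Cy5 and 0.19 in Cy3.

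Set medians lay further apart for some stems than for others. The Srsf median was -0.79 in set 1, -0.67 in set 2 and -0.41 in set 3, and the Hnrnp median was -0.51, -0.37 and -0.17. The Prpf median was -0.19, -0.14 and -0.02. Set 3 gave the highest of the set means for 6 of 7 Srsf, 7 of 8 Hnrnp and 7 of 9 Prpf probes. It did so for 4 of 10 Lsm and 4 of 12 Snrp probes, and for 4425 of all 12724 tested probes. For Sf3 set 3 was instead the lowest, at -0.39, against -0.23 in set 1 and -0.27 in set 2, and none of its 5 probes was highest in set 3. Lsm medians were -0.35, -0.30 and -0.39. These differences were not tested. Both arrays of set 3 had the most values at 0, 17.8% with treated RNA in Cy5 and 12.8% in Cy3, against 7.97% to 9.64% on the other 4 arrays. The part of this in the result was not tested.

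Lsm5, Snrpe and Srsf10 shared a pattern in which both arrays of set 1 were above 0 and the other 4 below. Those 3 of 51 member probes compare with 1.05% of all tested probes (134 of 12724). Srsf1, with no value in set 3, had the same signs in sets 1 and 2. With set 2 in the place of set 1, 1 member probe (Snrpd3) and 187 of all tested probes had such a pattern. With set 3 in that place, 1 member probe (Snrpa1) and 137 of all tested probes did. The pattern of set 1 was noticed after the values were seen, and the sets are not known to differ in treatment.

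Calls depended on how values at 0 were handled and on single arrays. With zeros kept as values and all 16281 probes fitted, 7 of 59 member probes were called lower, against 3.10% of all probes, and 0 higher. These 7 were Lsm2, Lsm6, Lsm7, Prpf19, Hnrnpa1, Snrpg and Snrpf, and no Srsf probe was among them. Ratios of probes with all 6 values are the same in both fits, so the spread estimate (0.76 prior degrees of freedom, against 6.33) and the number of tests differ, not the ratios. Without set 2, 14 members were called (6.55% of all probes), and without the array of set 3 with treated RNA in Cy3 also 14 (6.92% of all probes). Over 17 alternative fits of the same probes, Lsm2, Lsm6, Prpf19 and Hnrnpa1 were called lower in all 17. Hnrnph1 was called in 3 of 17, Sf3b3 in 5, Lsm12 in 6, and Sf3b6 and Srsf9 in 9.

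Other genes of the splicing pathway, and of nonsense-mediated decay, decapping and histone mRNA end processing, were taken from 8 lists written from textbook roles. Of 160 listed genes, 105 had a probe, and of 125 tested probes 37 fell and 3 rose (29.6% and 2.40%, against 12.2% and 14.8% of all probes), with a median of -0.22. Assembly of the Sm ring and snRNP import had 6 of 17 tested probes lower and 0 higher. Among them were Gemin6 (lower of 2 called probes at -0.54 ± 0.21) and Smn1 (-0.45 ± 0.21) of the SMN complex, which loads Sm rings, and the cap-binding subunit Ncbp2 (-0.54 ± 0.22). Gemin2, also of that complex, was the smallest of these calls (-0.29 ± 0.06). Recognition of the branch point and 3′ splice site had 2 of 6 lower, Puf60 (-0.45 ± 0.19) and Cherp (-0.31 ± 0.04). Puf60 read -0.57, -1.11 and -0.45 (treated in Cy5) but -0.21, -0.22 and -0.14 (treated in Cy3).

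The list of the tri-snRNP, the Prp19 complex and helicases had 9 of 29 lower and 1 higher. The tri-snRNP cyclophilin Ppih (lower of 2 called probes at -0.49 ± 0.12) and the U5 GTPase Eftud2 (-0.45 ± 0.20) fell furthest, the helicase Dhx16 fell by 0.31 ± 0.18, and Mfap1a rose by 0.29 ± 0.13. With treated RNA in Cy5, Dhx16 read 0.03 in set 3 and Mfap1a -0.07 in set 2, against the direction of their means. Among SR protein kinases and SR-related proteins 5 of 26 fell and 0 rose. Tra2b, an SR-like activator of exons, fell by 0.64 ± 0.11 and the speckle protein Son by 0.51 ± 0.17, and the helicase Ddx39b and the kinase Clk2 fell by 0.32 ± 0.13 and 0.30 ± 0.02. Clk2 read -0.46, -0.88 and -0.44 (treated in Cy5) but -0.10, 0.23 and -0.15 (treated in Cy3). Its small SD is over set means, in which the orientations were averaged, and does not show this split. Of 31 probes of other splicing regulators 9 fell and 1 rose. Sfpq, of the paraspeckle, was the lowest (-0.88 ± 0.28), followed by Rbmx (-0.65 ± 0.08), the smallest call was Pcbp1 (-0.31 ± 0.11), and Rbm4 rose by 0.48 ± 0.02.

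Genes were also listed for roles outside splicing, and whether each works with an Lsm ring was not tested. Of 5 probes for decapping factors, the helicase Ddx6 (-0.53 ± 0.50) and the scavenger decapping enzyme Dcps (-0.41 ± 0.06) fell, and the decapping enzyme Dcp2 rose by 0.37 ± 0.24. Of 8 probes on the list for histone mRNA end processing 3 fell. They were Cpsf1, by 0.52 ± 0.10, the histone stem-loop binding gene Slbp, by 0.38 ± 0.14, and Cstf1, by 0.35 ± 0.03. Whether Cpsf1 and Cstf1 act on histone mRNAs was not tested. In the exon junction complex and nonsense-mediated decay 1 of 3 fell, the helicase Upf1 (-0.57 ± 0.22).

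For comparison, 8 of 66 tested probes of mitochondrial ribosomal protein genes (Mrpl and Mrps) fell and 8 rose, with a median of -0.08. Of 24 tested probes of Mcm, Orc, Rfc and Gins genes, which serve DNA replication, 13 fell and 2 rose, with a median of -0.34. No test of the splicing factors against either group was made.

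**Figure D4:**
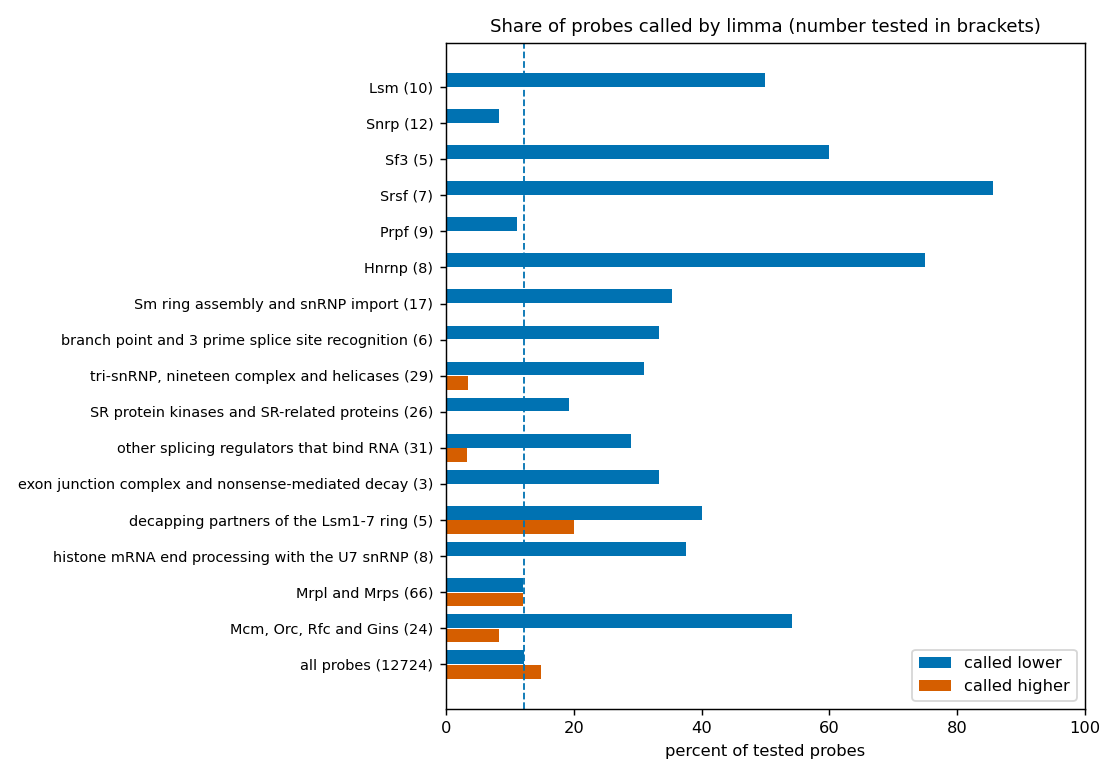
Percent of tested probes called lower (upper bar) and higher (lower bar) by limma, with the number tested in brackets. Bars stand for the 6 symbol stems, the 8 other lists, Mrpl and Mrps, Mcm, Orc, Rfc and Gins, and all probes. A dashed line marks the 12.2% of all probes called lower. Srsf (85.7%) and Hnrnp (75.0%) have the longest bars among the stems, and Snrp (8.33%) and Prpf (11.1%) lie below the line.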

How the data were processed

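The authors deposited 1 log ratio of Cy5 over Cy3 per probe and array, taken here as log2. The log base, background correction, dye normalization and any spot filter are not given by the labels or the file. The median deposited ratio was 0 on all 6 arrays, no pair of arrays was identical, and 0 columns were left unmapped. The dyes come from the labels' source names. Signs were turned on the 3 arrays with treated RNA in Cy3. Turned arrays correlated at 0.74 to 0.81 across probes within an orientation and at 0.56 to 0.78 between orientations. Exact zeros were set to missing, and both orientations of a set were averaged, so that dye effects cancel. The 3 set means were tested against 0, two-sided, with limma 3.58.1 (lmFit, eBayes; R 4.3.3) on all 12724 probes with 6 values, with Benjamini-Hochberg adjustment over all of them. The procedure was tested on simulated data with independent noise on each array and no dye effect. In the real data the consensus correlation within sets was 0.35, so the simulation does not cover that structure. Members, lists and tests were chosen with earlier results of these data known.

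Of 16281 probes, 13738 had 1 platform symbol, 52 several and 2491 none; a probe listed for Plekhj1, Sf3a2 and Amh together is therefore no member. Array values are given for the 2 lowest and 2 highest tested probes of each stem, all Lsm probes, and called probes below 0 on all arrays with a log2 change of at least 0.5. Others are summarised, apart from array values of Srsf10, Snrpe, Clk2, Puf60, Dhx16, Mfap1a and probes without 6 values, chosen after they were seen. Of each list, the 2 lowest and 2 highest called probes are named. Alternatives varied the zeros, the probe filter, averaging by gene, the set as a block, centring and scaling, the orientation, and left out each set and array.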

Additional observations from a re-analysis of the deposited data

Results flagged for a closer look

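A total of 5 member probes had every array of one dye orientation on one side of 0 and every array of the other on the opposite side. Snrpc averaged -0.38 with treated RNA in Cy5 and 0.0857 in Cy3, and Snrpd2 averaged -0.27 with treated RNA in Cy5 and 0.10 in Cy3. Prpf31 averaged -0.23 with treated RNA in Cy5 and 0.12 in Cy3. The pseudogene probe Snrp1c-ps2 ran the other way, at 0.23 with treated RNA in Cy5 and -0.22 in Cy3. The dye effect of these 4 did not pass limma's threshold, and such a split was shown by 7.84% of tested members, against 7.21% of all tested probes. Prpf4b, with 5 values, averaged -1.06 with treated RNA in Cy5 and 0.22 in Cy3, and its difference was not tested.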

How the results depend on the processing

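With zeros kept as values, 7 of 59 member probes were called lower (3.10% of all probes), against 22 of 51 with zeros missing (12.2% of all tested probes). The median ratio over members was -0.27 and moved to -0.32 with treated RNA in Cy5 alone and to -0.22 with it in Cy3 alone. Leaving out each set or each array gave 14 to 22 member probes called lower, while 6.44% to 10.8% of all tested probes were, and a median of -0.30 to -0.20, with 0 called higher in any of the 18 alternatives. The lowest count came without set 2 and without the set 3 array with treated RNA in Cy3, and the highest without the set 1 array with treated RNA in Cy3. The replicate block (the set as a random block over 6 arrays) gave 24 member probes called lower, against 11.9% of all tested probes. It gave 2 members with a dye effect, against 7.87% of all tested probes, and the other fits that tested it gave 0 members. Deviations of the 2 arrays of a set correlated at 0.53, 0.08 and 0.17 in sets 1, 2 and 3, so arrays of a set are not shown to deviate together in every set, although the set means of the main test join them by set number. A fit on 6 arrays with a dye term, which does not use the set numbers, called 27 member probes lower, against 16.1% of all tested probes. Of 306 values of 17 named called probes under these alternatives, 298 moved by less than 1 SD of the set means, 8 by more and 0 changed sign. Of 270 values of 15 named probes that were not called, 14 moved by more. Changes to the zeros, the probe filter, the dye term or the block leave the mean of a probe with 6 values as it was. A probe below 0 on all 6 arrays also keeps its sign when arrays or sets are left out or rescaled. These counts are therefore no test of how stable the ratios are. Scaling changed no direction of a called probe, and centring put the median over all tested probes at -0.003, against -0.01 without it. The alternatives for the dye effect were chosen after seeing the data. Signal over background is unknown, since no intensities were used here.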
